A study of Homo sapiens with 18 samples.

Results

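Steroid-producing cells of the adrenal cortex are set up and kept by a small group of transcription factors. The 8 genes described here are NR5A1, NR5A2, GATA4, GATA6, WT1, CITED2, NR2F1 and NR2F2, chosen by name and read wherever the array's annotation gives a probe set to 1 of them alone. Of these, 7 were measured, each by a single probe set, out of 18417 genes in all; NR2F2 is not analysed here. Their RNA was read in H295R cells, an established human adrenocortical carcinoma line that makes steroids. The H295R cells had stably taken up a non-inducible pcDNA4 plasmid, either empty (control cells) or carrying the ligand-binding glucocorticoid receptor GRα (GRα cells), and grew in Zeocin. After 24 h without serum, each of the 2 lines received dexamethasone at 100 nM, RU486 at 100 nM or the ethanol vehicle for 6 h. Dexamethasone is a synthetic agonist of the glucocorticoid receptor, and RU486 (mifepristone) is a ligand that mostly blocks it. This gives 6 groups of 3 arrays, except GRα cells with RU486, where replicate A failed quality control according to the labels and only replicates B and C hold values. Each genotype is a single stable line, so the added receptor and any other difference between the lines cannot be told apart.

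NR5A1 (steroidogenic factor 1) is a nuclear receptor that binds extended half-sites of the AAGGTCA type as a monomer and switches on genes of steroid synthesis in the adrenal cortex and gonads. WT1 and CITED2 act upstream of it in the developing adrenal, GATA4 and GATA6 bind GATA sites beside it on shared promoters, and NR5A2 (liver receptor homolog 1) is its closest relative. NR2F1 and NR2F2 (COUP-TFI and COUP-TFII) are orphan receptors that bind AGGTCA repeats and can compete with NR5A1 at steroidogenic promoters.

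The 17 arrays had medians between 6.28 and 6.35 log2 over all probe sets, and values were RMA values on the log2 scale, so 1 unit is a doubling of signal. Over all genes, pairs of arrays correlated at 0.987 to 0.997 within a line and at 0.971 to 0.977 across lines. NR3C1, the glucocorticoid receptor gene, was higher in GRα cells than in control cells by 0.59 ± 0.07 log2 (SE) in vehicle (limma adjusted p = 1.37e-06), the direction the labels give. The adrenocortical markers were measured in full (10 of 10), and their mean over an array lay between 7.89 and 8.06 log2 in control cells and between 7.54 and 7.69 in GRα cells. That mean does not stand for each marker. In vehicle 5 of the 10 were lower and 1, CYP17A1, was higher at a limma adjusted p under 0.05, beside 18.3% and 15.0% of all genes. Array means of the fibroblast (7 of 7), endothelial (5 of 5), leukocyte (4 of 4), gonadal (5 of 5) and chromaffin (6 of 8) markers lay between 4.95 and 6.21 log2, and the files hold no detection call that would set a background for any probe set. Their part in the results below was not tested. In bulk RNA, fewer cells of a type and less RNA per cell cannot be told apart. A gene was called at a limma adjusted p under 0.05 over all 18417 genes, and errors of differences are standard errors (SE). The 2 or 3 arrays in a group limit the precision, and the labels do not say whether replicates were separate cultures, so p-values measure only the spread between these samples.

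The 2 members that moved most, NR5A1 and GATA6, have the RefSeq promoter windows printed here as the sequences in which the motifs of the other factors were looked for. Each window is the 250 bases before the annotated start, on the gene's strand from 5′ to 3′, in build GRCh38.p14. The motifs were searched on both strands. The half-sites of NR5A receptors were spelled as AAGGTCA and, with a free base, as CAAGGNC, and the core receptor half-site, which lies inside the first of these, as AGGTCA. Sites for GATA factors were spelled AGATAA or, with another first base, TGATAA. A half-site of the glucocorticoid receptor was spelled AGAACA, and the E-box bound by USF proteins CACGTG. Capitals mark the matches. NR5A1 lies on chromosome 9, minus strand, and its window is chr9:124507400-124507649. It holds CACGTG at 82 bases and CAAGGNC at 225 bases before the start (distance to the match's first base). GATA6 lies on chromosome 18, plus strand, and its window is chr18:22169339-22169588; none of these letters occurs in it.
NR5A1: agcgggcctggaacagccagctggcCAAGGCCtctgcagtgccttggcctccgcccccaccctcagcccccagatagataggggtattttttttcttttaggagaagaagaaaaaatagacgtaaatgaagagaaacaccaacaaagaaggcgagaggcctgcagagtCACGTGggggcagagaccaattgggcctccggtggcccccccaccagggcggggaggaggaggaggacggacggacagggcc
GATA6: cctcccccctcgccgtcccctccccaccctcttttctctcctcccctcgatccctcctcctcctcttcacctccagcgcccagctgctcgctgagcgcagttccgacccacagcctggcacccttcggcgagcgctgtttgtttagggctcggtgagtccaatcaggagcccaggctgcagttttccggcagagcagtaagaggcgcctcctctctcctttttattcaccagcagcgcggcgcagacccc
For scale, over 35116 RefSeq windows of this length AAGGTCA occurs in 3.44%, CAAGGNC in 14% and AGGTCA in 12.1%. AGATAA occurs in 9.17%, TGATAA in 6.66%, AGAACA in 12.4% and CACGTG in 6.34%. A match is a description of letters and not a bound site.

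NR5A1 RNA differed between the lines without ligand and rose with dexamethasone in GRα cells. In vehicle-treated control cells its values (probe set 8164077) were 8.66, 8.72 and 8.69 log2. In vehicle-treated GRα cells they were 8.25, 8.16 and 8.49, all below the control arrays. NR5A1 was 1.31-fold lower in GRα cells without ligand (log2 −0.39 ± 0.08, limma adjusted p = 0.000917). With either ligand the arrays of the lines overlapped. With dexamethasone the control arrays read 8.94, 9.02 and 9.14 log2 and the GRα arrays 8.94, 9.03 and 8.92, and the line difference was −0.07 ± 0.08 (limma adjusted p = 0.556, 95% interval −0.24 to 0.10). With RU486 the control arrays read 8.60, 8.45 and 8.53 and the GRα arrays 8.50 and 8.53, with a difference of −0.01 ± 0.09 (limma adjusted p = 0.962, 95% interval −0.19 to 0.18).

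Dexamethasone raised NR5A1 RNA in GRα cells. The highest vehicle array was 8.49 and the lowest dexamethasone array 8.92, so the groups did not overlap. The rise was 1.58-fold (log2 0.66 ± 0.08, limma adjusted p = 9.33e-05). In control cells the 3 dexamethasone arrays also lay above the 3 vehicle arrays, by 0.34 ± 0.08 log2, but this did not pass over all genes (limma adjusted p = 0.116). It passed with array weights (limma adjusted p = 0.0078), with a trended prior (0.0229) and without GRα vehicle replicate B (0.0411) or C (0.0374). These GRα arrays are not part of the comparison and act only through the shared spread and the adjustment over all genes. Without some other single arrays the rise lay well above the threshold, with the range given below. The difference between the lines in the size of the response, 0.32 ± 0.11 log2, did not pass either (limma adjusted p = 0.537). Set against RU486, dexamethasone left NR5A1 higher in both lines, by 0.45 ± 0.09 log2 in GRα cells (limma adjusted p = 0.0176) and by 0.51 ± 0.08 in control cells (limma adjusted p = 0.00524). The call in GRα cells was lost without GRα dexamethasone replicate A or B or GRα RU486 replicate B or C (limma adjusted p 0.0509 to 0.192), while the one in control cells held without any single array.

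RU486 alone gave NR5A1 no call. GRα arrays with RU486 lay at 8.50 and 8.53, just above the highest vehicle array of 8.49, a difference of 0.21 ± 0.09 log2 (limma adjusted p = 0.553). Control arrays with RU486 lay below their vehicle arrays, a difference of −0.16 ± 0.08 log2 (limma adjusted p = 0.999). The RU486 responses of the lines differed by 0.38 ± 0.12 log2, which did not pass (limma adjusted p = 0.999). From low to high, the NR5A1 means ran GRα vehicle (8.30), GRα RU486 (8.52), control RU486 (8.53), control vehicle (8.69), GRα dexamethasone (8.96) and control dexamethasone (9.03). Neighbours in this order did not differ beyond the spread of their arrays for GRα RU486 and control RU486, nor for both dexamethasone groups.

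**Figure D1:**
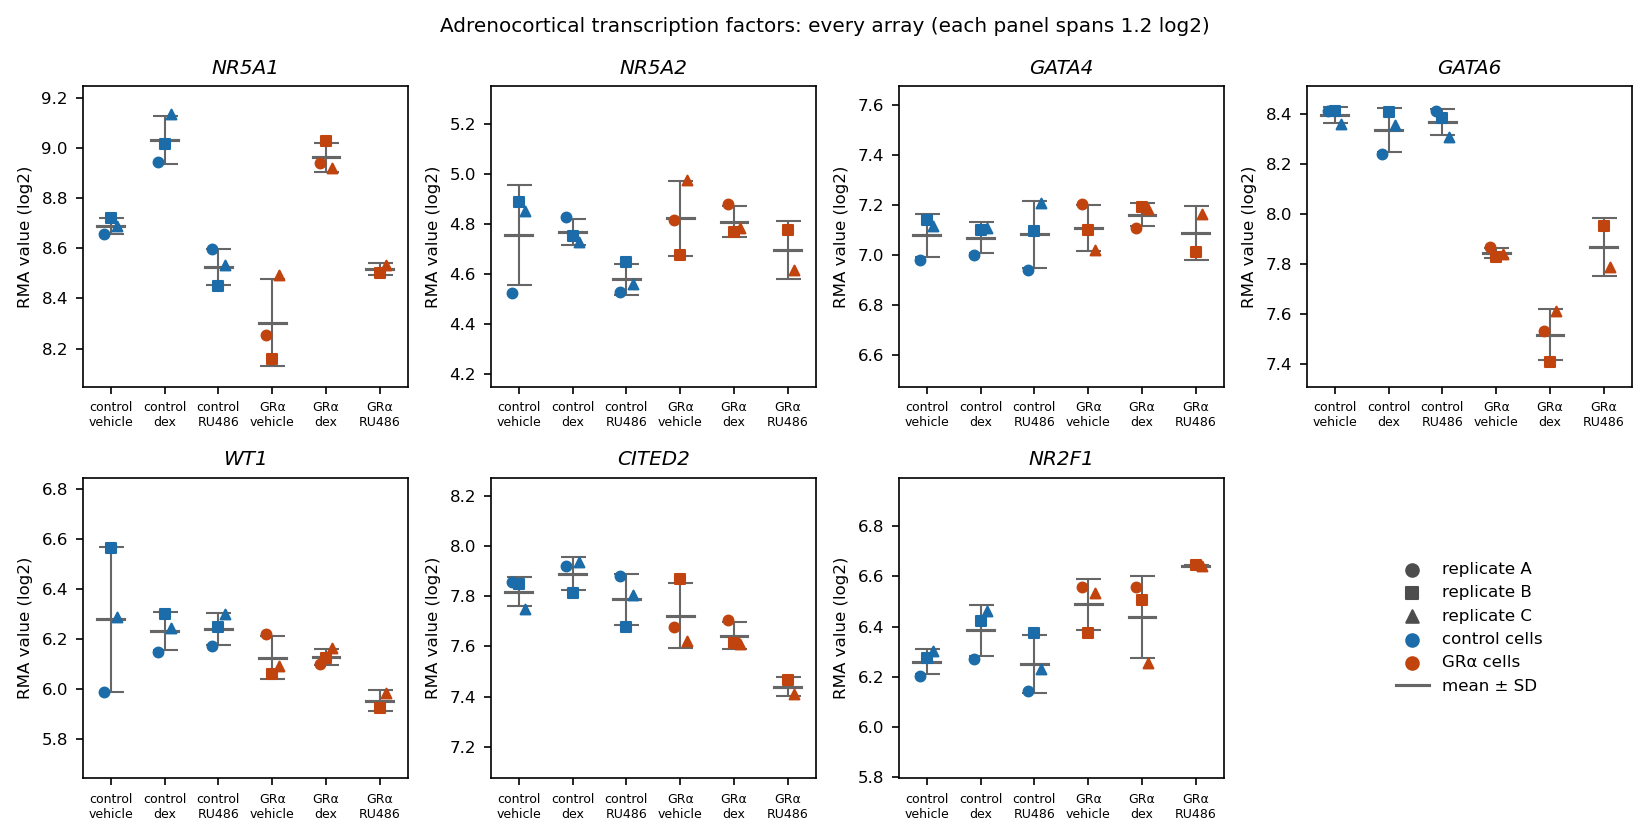
RMA values (log2, vertical axis) of the 7 measured genes in each of the 17 arrays, by group (horizontal axis), with 1 panel per gene and each panel spanning the same range. Points are arrays, shaped by replicate letter and coloured by line, with a bar at the group mean; NR5A1 stands highest in both dexamethasone groups (means 8.96 and 9.03), and the GRα arrays of GATA6 (7.41 to 7.95) all lie below its control arrays (8.24 to 8.41).

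GATA6, a zinc-finger factor of the fetal and adult adrenal cortex, separated the lines in every treatment. Its control arrays read 8.41, 8.41 and 8.36 log2 in vehicle, 8.24, 8.41 and 8.36 with dexamethasone, and 8.41, 8.38 and 8.31 with RU486. Its GRα arrays (probe set 8020455) read 7.87, 7.83 and 7.84 in vehicle, 7.53, 7.41 and 7.61 with dexamethasone, and 7.95 and 7.79 with RU486. The highest GRα array, at 7.95, lay below the lowest control array, at 8.24. GATA6 was 1.46-fold lower in GRα cells in vehicle (log2 −0.55 ± 0.07, limma adjusted p = 5.11e-06), 1.76-fold lower with dexamethasone (−0.82 ± 0.07, limma adjusted p = 3.89e-08) and 1.41-fold lower with RU486 (−0.50 ± 0.08, limma adjusted p = 6.16e-05).

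Within GRα cells, dexamethasone lowered GATA6, the opposite sign to NR5A1. GATA6 fell by 0.33 ± 0.07 log2 against vehicle (limma adjusted p = 0.0153) and was 1.28-fold lower than with RU486 (log2 −0.35 ± 0.08, limma adjusted p = 0.0332), with no overlap of arrays in either case. The first of these calls was lost without GRα dexamethasone replicate B (limma adjusted p = 0.0986) or GRα vehicle replicate A (0.0544). The second was lost without GRα dexamethasone replicate A or B or GRα RU486 replicate B or C (limma adjusted p 0.0658 to 0.43). In control cells the difference with dexamethasone was −0.06 ± 0.07 log2 (limma adjusted p = 1). The difference in response between the lines, −0.27 ± 0.10 log2, did not pass (limma adjusted p = 0.549), so a response limited to GRα cells was not shown. With RU486, GATA6 differed from vehicle by 0.02 ± 0.08 log2 in GRα cells and by −0.03 ± 0.07 in control cells.

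GATA4, the other GATA factor of steroidogenic cells, was not called in any comparison. Its values lay between 6.94 and 7.21 log2 in all control arrays and between 7.01 and 7.21 in all GRα arrays, and the 6 group means spanned 0.09 log2, as much as the spread within a group (SD 0.09). The 95% interval of its line difference in vehicle was −0.13 to 0.19 log2, and that of the dexamethasone effect in GRα cells was −0.11 to 0.22.

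CITED2, a transcriptional coregulator that binds CBP and p300 and raises NR5A1 dosage in the adrenal primordium, was called lower in GRα cells with dexamethasone and with RU486. With dexamethasone its arrays read 7.92, 7.81 and 7.94 log2 in control cells and 7.70, 7.61 and 7.61 in GRα cells, a difference of −0.25 ± 0.07 (limma adjusted p = 0.0143). With RU486 they read 7.88, 7.68 and 7.80 in control cells and 7.47 and 7.41 in GRα cells, a difference of −0.35 ± 0.08 (limma adjusted p = 0.00342). In both cases no arrays of the lines overlapped. The first call was lost without control dexamethasone replicate C (limma adjusted p = 0.0556). In vehicle the arrays of the lines overlapped (7.75 to 7.86 log2 against 7.62 to 7.87), and the difference of −0.10 ± 0.07 was not called (limma adjusted p = 0.351). That overlap came from GRα vehicle replicate B (7.87), the array with the lowest weight of all (0.194). Replicates A (7.68) and C (7.62) lay below every control vehicle array. Without replicate B the CITED2 line difference in vehicle was −0.17 (limma adjusted p = 0.0695). The response of CITED2 to dexamethasone differed between the lines by −0.15 ± 0.10 log2 (limma adjusted p = 0.763) and that to RU486 by −0.25 ± 0.11 (limma adjusted p = 0.999), so a ligand-dependent line difference was not shown. Without GRα vehicle replicate B the first of these was −0.08 (limma adjusted p = 0.943). RU486 against vehicle in GRα cells gave CITED2 −0.28 ± 0.08 log2, which did not pass (limma adjusted p = 0.513).

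NR2F1 was the one member called higher in GRα cells. With RU486 its arrays read 6.14, 6.38 and 6.23 log2 in control cells and 6.64 and 6.64 in GRα cells, 0.39 ± 0.10 higher (limma adjusted p = 0.00441). In vehicle they read 6.20, 6.27 and 6.30 against 6.56, 6.37 and 6.53, which do not overlap. That difference, 0.23 ± 0.09, lay at the threshold (limma adjusted p = 0.0491) and was called in 3 of 10 other settings and in 6 of 17 fits that each leave out 1 array. With dexamethasone the arrays overlapped (6.27 to 6.46 against 6.25 to 6.56 log2), with a difference of 0.05 ± 0.09 (limma adjusted p = 0.69). No ligand comparison called NR2F1.

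WT1, a zinc-finger factor of the urogenital ridge, and NR5A2 were called in no comparison. WT1 arrays lay between 5.99 and 6.57 log2 in control cells, both extremes being vehicle arrays (replicates A and B), and between 5.92 and 6.22 in GRα cells. Its largest difference was between the lines with RU486, −0.29 ± 0.11 log2 with no overlap of arrays, which missed the threshold (limma adjusted p = 0.0706) and was called in 4 of 10 other settings. Without control vehicle replicate A, the WT1 line difference in vehicle was −0.30 log2 and passed (limma adjusted p = 0.0135). With replicate B left out instead, the remaining control vehicle arrays (5.99 and 6.29) lie on both sides of the GRα vehicle arrays (6.06 to 6.22). The call thus rests on which extreme is left out, and a WT1 line difference in vehicle was not shown. NR5A2 arrays lay between 4.53 and 4.89 log2 in control cells and between 4.62 and 4.98 in GRα cells, with all 5 pairs of neighbouring groups overlapping. All of these values lie below the array medians, and no detection call is given for them. The NR5A2 line difference in vehicle had a 95% interval of −0.13 to 0.26 log2, and its dexamethasone effect in GRα cells one of −0.21 to 0.18.

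**Figure D2:**
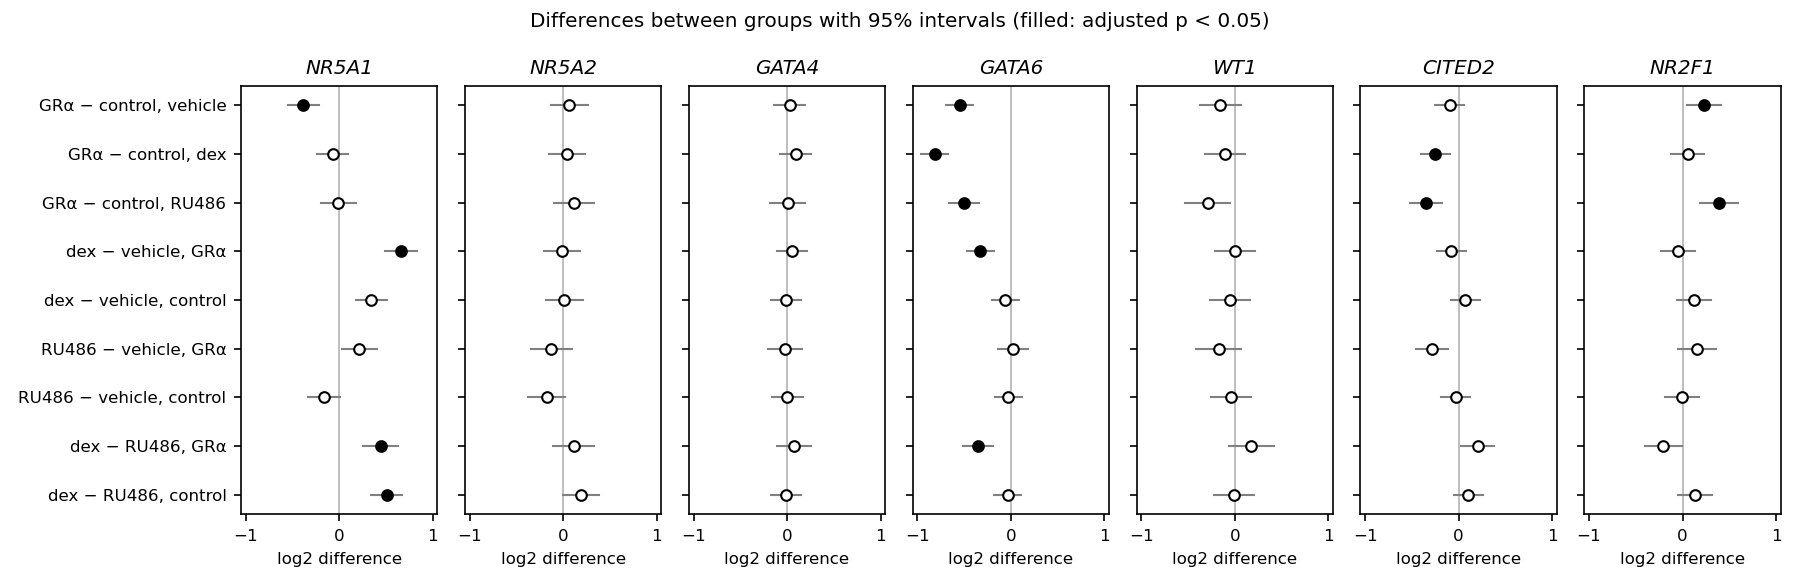
Log2 differences (horizontal axis) of the 7 genes in 9 comparisons (rows), with 95% intervals from limma; filled points have an adjusted p under 0.05 over all genes. NR5A1 is filled with dexamethasone in GRα cells (0.66) and GATA6 in all 3 comparisons of the lines (−0.55, −0.82 and −0.50), while NR5A2, GATA4 and WT1 have no filled point.

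Between the lines, the share of members called was near that of all genes. In vehicle 3 of 7 members were called, 1 higher and 2 lower, where 33.4% of all genes were called (15.0% higher and 18.3% lower in GRα cells). With dexamethasone 2 of 7 were called, both lower, beside 33.3% of all genes (17.6% lower). With RU486 3 of 7 were called, 1 higher and 2 lower, beside 29.2% (13.1% higher and 16.2% lower). Arrays of the lines did not overlap for 3, 2 and 4 members in vehicle, dexamethasone and RU486, where the shares of all genes were 40.5%, 45.6% and 54.8%.

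With ligand, calls were rare over all genes. Dexamethasone against vehicle in GRα cells called 2 of 7 members, 1 higher and 1 lower, beside 2.02% of all genes (1.36% higher and 0.662% lower). In control cells it called 0 of 7 members by limma, beside 0.261% of all genes (0.212% higher) and 904 genes at an unadjusted p under 0.05, NR5A1 among them. Dexamethasone against RU486 called 2 members in GRα cells, beside 0.896% of all genes (0.744% higher and 0.152% lower), and 1 in control cells, beside 0.364% (0.288% higher). RU486 against vehicle called 0 of 7 members and 0% of all genes by limma in either line. Before adjustment, 1572 genes in GRα cells and 621 in control cells had a p under 0.05. The difference in dexamethasone response between the lines called 0 members and 0.0652% of all genes, and that in RU486 response called 0 members and 0%. Before adjustment, limma gave 1361 and 745 genes a p under 0.05 in these tests.

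Arrays did not overlap in dexamethasone against vehicle for 2 members in GRα cells (15.8% of all genes) and for NR5A1 in control cells (12.7%). For RU486 against vehicle they did not overlap for NR5A1, WT1, CITED2 and NR2F1 in GRα cells (4 of 7, beside 20.4% of all genes), a comparison with only 2 RU486 arrays, and for NR5A1 in control cells (12.2%). For dexamethasone against RU486 they did not overlap for 5 members in GRα cells (26.9% of all genes) and for NR5A1 and NR5A2 in control cells (14.4%). Comparisons that share vehicle or dexamethasone arrays are not independent of each other.

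Of 20 genes listed as targets of NR5A1, 18 were measured, CYP21A2 and NR0B1 not. All 10 adrenocortical markers read above are also on this list, so the marker means and these counts are not separate observations. Between the lines in vehicle, 9 of the 18 were lower in GRα cells and 1 was higher, where 18.3% of all genes were lower and 15.0% higher, with a median log2 difference of −0.13 beside 0.01 over all genes. GNRHR, the gonadotropin-releasing hormone receptor, had the largest difference (log2 −2.87 ± 0.11, limma adjusted p = 1.96e-12), with control vehicle arrays at 7.98, 7.86 and 7.90 and GRα vehicle arrays at 5.10, 4.87 and 5.17. CYP19A1 (aromatase, −1.64 ± 0.11), HSD3B2 (3β-hydroxysteroid dehydrogenase, −1.59 ± 0.15) and SULT2A1 (the DHEA sulfotransferase, −1.09 ± 0.09) followed. CYP17A1, the 17α-hydroxylase, was the gene that was higher (0.22 ± 0.08, limma adjusted p = 0.0303). In dexamethasone 8 of the 18 were lower and none higher (17.6% of all genes were lower), and in RU486 8 were lower and CYP17A1 was higher (0.45 ± 0.08), beside 16.2% of all genes lower and 13.1% higher. The list was read from textbook knowledge and not from binding data in these cells. It was chosen with earlier results of these data known, so its counts describe these data and are not an independent test.

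With dexamethasone in GRα cells limma called 0 of the 18 listed targets, where 2.02% of all genes were called, so a count this low is near the share over all genes. Their median was −0.03 log2 beside −0.01 over all genes. HSD3B2 read 5.77, 5.52 and 5.80 log2 in vehicle and 5.29, 5.17 and 5.38 with dexamethasone, below every vehicle array, but its difference of −0.42 ± 0.15 did not pass (limma adjusted p = 0.193). STAR, which moves cholesterol into mitochondria, differed by 0.17 ± 0.07 (limma adjusted p = 0.291). In control cells FDX1, the electron carrier ferredoxin of mitochondrial P450 enzymes, rose by 0.38 ± 0.07 (limma adjusted p = 0.0208), the only call of the 18 (0.261% of all genes were called). That call was lost without any 1 of the 6 control arrays compared (limma adjusted p 0.0521 to 0.139). In GRα cells FDX1 differed by 0.21 ± 0.07 (limma adjusted p = 0.128).

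**Figure D3:**
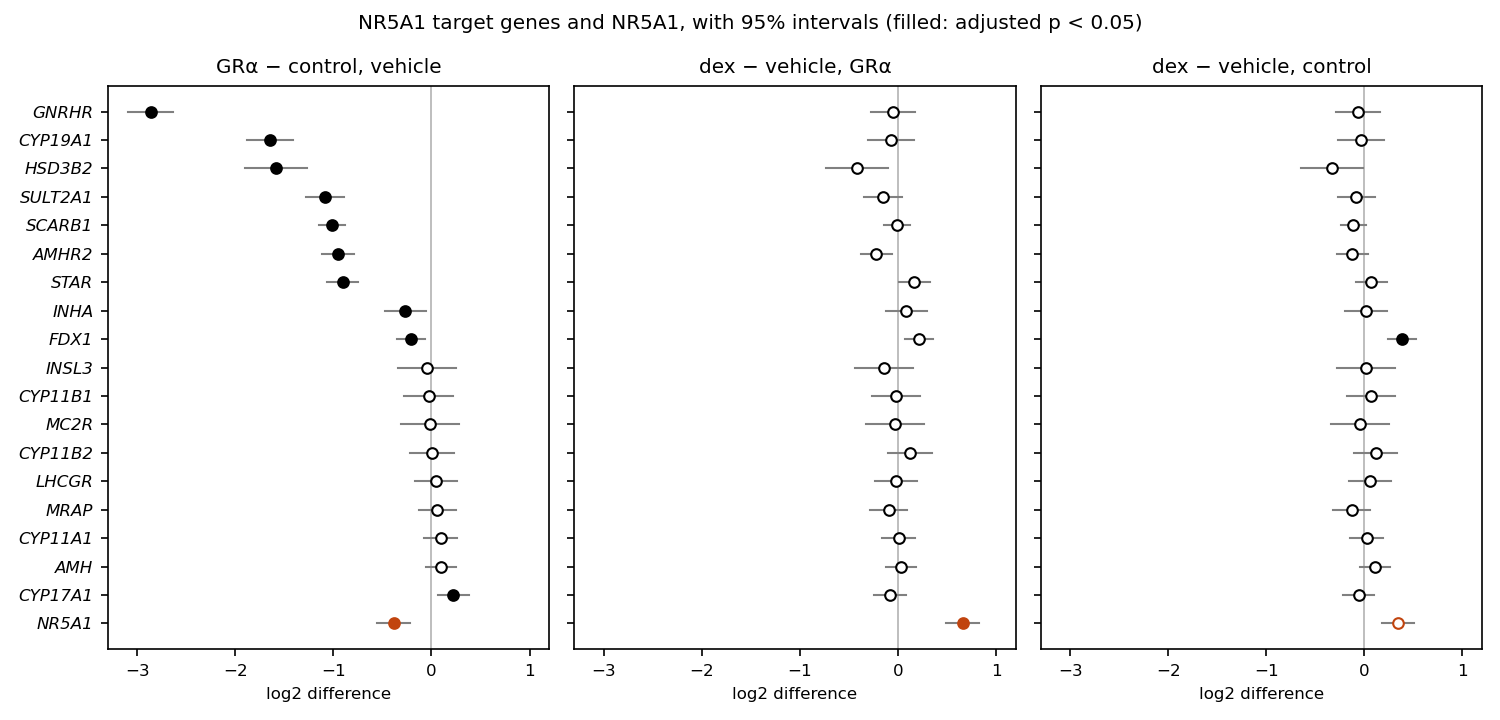
Log2 differences (horizontal axis) with 95% intervals for the 18 measured NR5A1 targets (rows, black) and NR5A1 (orange) in the lines compared in vehicle (left) and for dexamethasone in GRα (middle) and control cells (right); filled points have a limma adjusted p under 0.05. In the left panel 9 targets lie at or below −0.21 and are filled, from GNRHR (−2.87) to FDX1 (−0.21), while in the middle panel, where 2.02% of all genes are called, NR5A1 (0.66) is filled and no target is.

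The RefSeq windows of HSD3B2 and SULT2A1 (GRCh38.p14, 250 bases before the start, gene's strand) are printed as examples of listed targets lower in GRα cells whose windows hold GATA letters, picked after the matches were seen. Capitals again mark motif matches. The windows of GNRHR, the target with the largest difference, and of AMHR2 hold none of the letters searched. HSD3B2, on chromosome 1, plus strand, chr1:119414681-119414930, holds TGATAA at 148, CAAGGNC at 103 and AGAACA (read as TGTTCT on this strand) at 9 bases before the start. SULT2A1, on chromosome 19, minus strand, chr19:47886316-47886565, holds AGATAA at 164 and TGATAA (read as TTATCA) at 101.
HSD3B2: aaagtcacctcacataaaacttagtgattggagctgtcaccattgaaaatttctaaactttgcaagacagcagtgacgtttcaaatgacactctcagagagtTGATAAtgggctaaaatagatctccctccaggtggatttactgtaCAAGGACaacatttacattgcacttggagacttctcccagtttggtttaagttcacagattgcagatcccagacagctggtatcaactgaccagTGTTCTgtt
SULT2A1: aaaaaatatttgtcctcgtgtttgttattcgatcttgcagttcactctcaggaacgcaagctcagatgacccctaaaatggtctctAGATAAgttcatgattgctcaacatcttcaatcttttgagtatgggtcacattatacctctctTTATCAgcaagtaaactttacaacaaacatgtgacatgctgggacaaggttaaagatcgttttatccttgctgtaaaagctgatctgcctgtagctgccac
HSD3B2 arrays in vehicle read 7.28, 7.31 and 7.27 log2 in control cells and 5.77, 5.52 and 5.80 in GRα cells, with no overlap. SULT2A1 read 9.74, 9.49 and 9.58 against 8.50, 8.61 and 8.44, again with no overlap. With dexamethasone and RU486 the line differences were −1.67 and −1.66 log2 for HSD3B2, −1.15 and −1.04 for SULT2A1 and −0.07 and −0.01 for NR5A1. Windows of targets that were not lower hold such letters too, AGATAA at 69 bases before the start of CYP17A1 and TGATAA at 63 before that of CYP11A1. Whether GATA6 or NR5A1 acts at these letters, or has a part in the line differences of these targets, was not tested.

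Of 20 listed NR5A1 coregulators, 15 were measured and 7 were called between the lines in vehicle, where 15.0% of all genes were higher and 18.3% lower. In vehicle, 2 were higher in GRα cells, PIAS1 (a SUMO ligase, 0.82 ± 0.05) and CBX2 (a polycomb protein needed for NR5A1 expression in the gonad, 0.41 ± 0.08). Another 5 were lower, namely TRERF1 (−0.72 ± 0.13), the p160 coactivators NCOA1 (−0.62 ± 0.07) and NCOA2 (−0.48 ± 0.08), PPARGC1A (−0.42 ± 0.06) and DDX20 (−0.22 ± 0.08). The median was −0.11 log2 beside 0.01 over all genes. PPARGC1A, the metabolic coactivator PGC-1α, was lower with dexamethasone than with RU486 in control cells (log2 −0.41 ± 0.06, limma adjusted p = 0.00525) and in GRα cells (−0.34 ± 0.07, adjusted p = 0.0327). Its GRα call was lost without GRα RU486 replicate C (limma adjusted p = 0.467) and in several other settings.

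Of 17 listed regulators of adrenal and gonadal development, 16 were measured and 2 were called between the lines in vehicle, both higher, a smaller share than the 33.4% of all genes. WNT4, a signal of the outer cortex, was higher in GRα cells by 1.75 ± 0.07 log2 (limma adjusted p = 6.23e-12), and SHH, the sonic hedgehog ligand made by outer cortical progenitors, by 0.75 ± 0.07 (limma adjusted p = 3.78e-07). SHH also rose with dexamethasone in both lines. In GRα cells its vehicle arrays read 7.93, 8.08 and 7.88 log2 and its dexamethasone arrays 8.45, 8.48 and 8.46 (0.50 ± 0.07, limma adjusted p = 0.000966). In control cells they read 7.11, 7.32 and 7.22 against 7.67, 7.62 and 7.77 (0.47 ± 0.07, limma adjusted p = 0.00933). The control call for SHH was lost without control dexamethasone replicate C or control vehicle replicate A or C (limma adjusted p 0.054 to 0.0773).

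Relatives of the members that are not members themselves were read from the same fit. Of 6 other GATA factors and FOG cofactors, GATA3 alone was called in vehicle (33.4% of all genes were), lower in GRα cells (−0.57 ± 0.08, limma adjusted p = 2.5e-05). Of 9 measured NR2 and RXR receptors (10 listed), NR2E3 (0.76 ± 0.10) and NR2E1 (0.33 ± 0.09) were higher. That is 2 of 9 called, beside 33.4% of all genes. NR2E1 vehicle means were 5.21 log2 in control cells and 5.54 in GRα cells, below the array medians. Of 8 CITED2 partners and relatives, 3 were called in vehicle, again beside 33.4% of all genes. TFAP2C, an AP-2 factor coactivated by CITED proteins, was higher by 2.19 ± 0.11 log2 (limma adjusted p = 1.04e-10), and CITED4 (−0.49 ± 0.08) and TFAP2A (−0.30 ± 0.08) were lower. TFAP2A vehicle means were 5.74 log2 in control cells and 5.44 in GRα cells, also below the array medians, as was the TFAP2C control mean (5.82). HIF1A, whose binding to p300 CITED2 competes with, rose with dexamethasone in GRα cells by 0.27 ± 0.06 (limma adjusted p = 0.0234), a call lost without GRα dexamethasone replicate A or B or GRα vehicle replicate A (limma adjusted p 0.0845 to 0.0994).

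The genes whose values followed NR5A1 most closely were looked for among 3207 genes whose group means spanned at least 0.5 log2. Over the 17 arrays the highest Pearson correlations were those of VDR (the vitamin D receptor, 0.95), OR7C1 (0.93), ST6GAL1 (0.91), PLD6 (0.90) and TSC22D1 (0.90). With each line's mean subtracted they were NCAM1 (0.97), VDR (0.97), ST3GAL1 (0.95), ST6GAL1 (0.95) and FADS1 (0.94). Of these, ST3GAL1 was called with dexamethasone in both lines (0.67 ± 0.07 in GRα and 0.41 ± 0.07 in control cells), and VDR rose in GRα cells (0.54 ± 0.09), with a difference between the lines in its response of 0.28 ± 0.12 that did not pass (limma adjusted p = 0.638). VDR means in control cells were 7.49 log2 in vehicle and 7.75 with dexamethasone. Every gene named here had a higher mean with dexamethasone than with vehicle in both lines, which follows in part from how they were picked. By Spearman correlation, 2 of 5 genes were shared with the first list and 3 of 5 with the second. Among the members, GATA6 ran against NR5A1 after line means were subtracted (Pearson −0.69) and showed no relation before it (0.00). In control cells GATA6 differed by only −0.06 ± 0.07 log2 with dexamethasone, where NR5A1 differed by 0.34. These correlations describe arrays that share 6 groups and 1 normalization, and they carry no test.

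**Figure D4:**
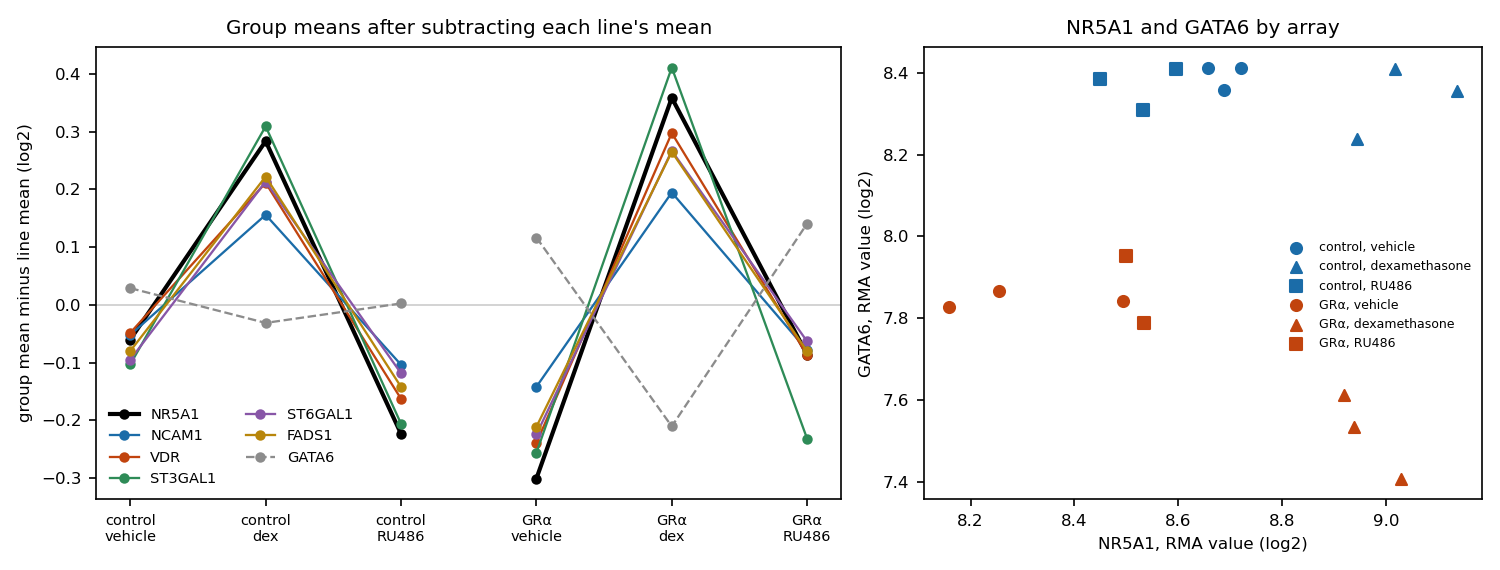
Left, group means minus the line's mean (log2, vertical axis) of NR5A1 (black), the 5 genes most like it and GATA6 (dashed grey) in the 6 groups; right, GATA6 against NR5A1 (both RMA log2) with 1 point per array, coloured by line and shaped by treatment. The lines on the left peak with dexamethasone in both lines except GATA6, and on the right the 3 GRα dexamethasone arrays sit lowest for GATA6 (7.41 to 7.61) with NR5A1 between 8.92 and 9.03.

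The nearest measured gene on each side of every member was also read, a choice made after the members' values were seen. None of these 14 neighbours was called by limma in any ligand comparison, those that called NR5A1 and GATA6 included. At most 2.02% of all genes were called in any of these comparisons, so no call among 14 genes is near that share. Between the lines in vehicle 4 of 14 were called, near the 33.4% of all genes called there, namely CTAGE1 (−0.26 ± 0.08) and MIB1 (−0.23 ± 0.08) beside GATA6, NR6A1 (−0.20 ± 0.07) beside NR5A1 and ARRDC3 (−0.33 ± 0.07) beside NR2F1. MIB1 and ARRDC3 were also called lower with dexamethasone (−0.27 and −0.44) and with RU486 (−0.29 and −0.33). CTAGE1 was not called in either (0.02 and 0.05), nor was NR6A1 (−0.13 and −0.12), and ZNF281 beside NR5A2 was called lower with RU486 (−0.28 ± 0.09).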

How the data were processed

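RNA of H295R cells was measured on whole-transcript arrays. The table of 29153 probe sets that the authors deposited holds values on the log2 scale. The submitters' processing notes name RMA, which subtracts background, quantile-normalizes and summarises probes, and limma. The settings used were not given in the sources used here, nor was a genome build. A change shared by most RNAs would be lost in quantile normalization. The platform's symbols were updated through RefSeq (19429 of 19460 probe sets with 1 symbol matched). Probe sets with several symbols (1754) or none (7939) were left out, and the brightest probe set stood for a gene, which gave 18417 genes. NR2F2 is named only.

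Groups came from the labels. All 17 arrays entered a single limma model (3.58.1, R 4.3.3) with a mean per group, 11 residual and 5.89 prior degrees of freedom, and 11 contrasts. Tests were two-sided with Benjamini-Hochberg adjustment over all genes, and the model was tested on simulated data. Promoter windows came from RefSeq's GRCh38.p14. Figures were drawn with matplotlib 3.10.9.

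Members and lists were chosen with earlier results of these data known. Genes named are the members, NR3C1, up to 4 called genes per list and comparison with the largest change (some left out for length), and the 5 genes most like NR5A1 on all arrays and within lines. Named outside this rule, after their values were seen, are the neighbouring genes, CYP17A1, CYP11A1, STAR, AMHR2 and, for some comparisons, CBX2, PPARGC1A, DDX20, FDX1 and HSD3B2. Alternative settings changed the normalization (a second quantile step, or centring on medians), the prior (trend, robust), the weights of arrays, the unit of a gene, the removal of the dimmest 25% of genes, the arrays fitted, and the use of the letter as a block; each array was also left out in turn.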

Additional observations from a re-analysis of the deposited data

Results flagged for a closer look

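NR5A1 values with RU486 lay on opposite sides of vehicle in the 2 lines, without a call in either. Both GRα arrays with RU486 (8.50 and 8.53 log2) lay above all 3 GRα vehicle arrays (8.16 to 8.49), and all 3 control arrays with RU486 (8.45 to 8.60) lay below all 3 control vehicle arrays (8.66 to 8.72). Against vehicle, the difference was 0.21 ± 0.09 log2 in GRα cells (limma adjusted p = 0.553) and −0.16 ± 0.08 in control cells (limma adjusted p = 0.999). The RU486 responses of the lines differed by 0.38 ± 0.12 log2 (SE), which did not pass over all genes (limma adjusted p = 0.999). The gap between the highest GRα vehicle array and the lower GRα RU486 array was the smallest margin behind it, and the GRα group with RU486 has only 2 arrays. GRα vehicle replicate B, the array with the lowest weight (0.194), also held the lowest NR5A1 value of all arrays (8.16).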

How the results depend on the processing

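Over all members, settings and comparisons, 2023 recomputed values kept their side of the threshold, 34 lost a call, 11 gained one and 0 calls reversed. Small differences without a call could change sign, as that of WT1 with dexamethasone in GRα cells did without GRα vehicle replicate B. The NR5A1 rise with dexamethasone in GRα cells (0.59 to 0.76 log2 when single arrays were left out) and its line difference in vehicle (−0.48 to −0.31) were called in all 10 other settings and all 17 fits without 1 array. NR5A1 with dexamethasone in control cells was called with array weights (0.35 log2, limma adjusted p = 0.0078) and with a trended prior (0.34, 0.0229), and ranged from 0.29 to 0.39 without single arrays (adjusted p 0.0374 to 0.574). NR5A1 in dexamethasone against RU486 in GRα cells was not called when only the groups compared were fitted (0.45, adjusted p = 0.0795), and ranged from 0.41 to 0.47 without single arrays (adjusted p 0.00383 to 0.192). NR2F1 in vehicle was the least stable member call.

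Over all groups, replicate letters did not pair the samples. The 40 same-letter pairs of arrays had correlations of their deviations from −0.25 to 0.32. Of 17 arrays, 5 were closest to their own letter. Within control cells, same-letter correlations ran from −0.02 to 0.32 and were mostly positive, and those of unlike letters ran from −0.37 to 0.27 and were mostly negative. Whether the control samples alone were paired by letter was not tested. With the letter as a block (replicate block), NR5A1 with dexamethasone in GRα cells was 0.66 log2 (limma adjusted p = 0.000237), and its line difference in vehicle was −0.39 (adjusted p = 0.00132). The block ended the calls of GATA6 in dexamethasone against RU486 in GRα cells (adjusted p = 0.0752) and of NR2F1 between the lines in vehicle (0.0661), gave WT1 a call between the lines with RU486 (0.0445), and changed no other member call.

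Groups of 2 or 3 arrays, 1 line per genotype and 1 time point limit these results, and a low array value has no detection call. The table bears on RNA only. No protein, binding or steroid measurement was used.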
